A study of Mus musculus with 6 samples.

Results

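Activator protein 1 (AP-1) is a dimeric transcription factor, and the data here concern the transcripts of 8 of its subunits: Fos, Fosb, Fosl1, Fosl2, Jun, Junb, Jund and Atf3. They were taken by symbol as AP-1 subunits that the isolation of cells can induce, and all 8 were found among the 24980 gene symbols listed. The cells were satellite cells, the stem cells of skeletal muscle, which had been sorted by flow cytometry from hindlimb muscles of adult C57BL6/J mice. RNA-seq was done on 6 libraries, 3 labelled scERα WT and 3 labelled scERα KO, the latter with estrogen receptor α, encoded by Esr1, targeted in satellite cells. The mice of both groups had been given tamoxifen, 10 mg in total, to induce Cre. The promoter driving Cre, the alleles carried by the WT mice, and the sex and exact age of the mice are named in no source used here. The libraries are numbered 1 to 3 within each group, and these numbers pair nothing. No label ties a library to its own mouse, and p-values therefore cover the spread among these 6 libraries, part of which may be technical.

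AP-1 proteins belong to the basic leucine zipper (bZIP) class: a zipper joins 2 subunits and the adjoining basic regions hold DNA. Jun proteins can pair with each other or with Fos proteins, Fos proteins need a Jun-type partner, and Atf3 pairs with itself or with Jun proteins and often represses. Fos, Fosb, Jun, Junb and Atf3 are immediate early genes, switched on within minutes by MAP kinases, serum response factor and stress, and the enzymatic and mechanical release of satellite cells from muscle is known to switch them on.

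The proximal promoters of Fos, Jun and Atf3 are shown because Fos and Jun give the family its name, Atf3 was the gene whose groups did not overlap, and short elements of known early response promoters lie in all 3. Each is the stretch of 250 bases upstream of the RefSeq start on GRCm38.p6, written 5′ to 3′ on the gene's strand, with matches in capitals. RefSeq promoter sequences were matched for 7 of the 8 genes, all but Fosl1. The Fos stretch is chr12:85473640-85473889 on the plus strand, the Jun stretch chr4:95052223-95052472 on the minus strand and the Atf3 stretch chr1:191183334-191183583 on the minus strand.
Fos: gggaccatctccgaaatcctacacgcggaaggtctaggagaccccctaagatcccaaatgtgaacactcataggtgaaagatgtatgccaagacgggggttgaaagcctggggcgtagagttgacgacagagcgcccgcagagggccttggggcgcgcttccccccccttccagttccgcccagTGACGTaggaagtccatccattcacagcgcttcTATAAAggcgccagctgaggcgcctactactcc
Jun: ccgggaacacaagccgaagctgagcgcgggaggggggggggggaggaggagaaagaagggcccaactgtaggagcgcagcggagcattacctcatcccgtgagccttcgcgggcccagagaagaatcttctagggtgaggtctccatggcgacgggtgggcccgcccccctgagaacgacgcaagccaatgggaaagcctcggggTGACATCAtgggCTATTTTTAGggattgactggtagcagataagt
Atf3: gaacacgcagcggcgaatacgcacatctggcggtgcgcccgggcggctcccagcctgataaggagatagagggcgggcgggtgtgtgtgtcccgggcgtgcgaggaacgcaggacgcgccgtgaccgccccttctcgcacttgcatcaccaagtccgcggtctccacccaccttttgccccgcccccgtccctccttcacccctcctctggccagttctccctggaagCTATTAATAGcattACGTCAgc

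In Fos the capitals mark TGACGT, the core shared by cyclic AMP response elements, at bases -66 to -61 from the start, and TATAAA at -33 to -28. In Jun they mark TGACATCA, an AP-1-like element through which Jun is known to act on its own gene, at -45 to -38, followed by a MEF2 site at -33 to -24. In Atf3 they mark a MEF2-type match at -22 to -13 and ACGTCA, which is TGACGT on the other strand, at -8 to -3. Both strands were searched for these and for TGACTCA, the classical AP-1 site, the full element TGACGTCA and the CArG box bound by serum response factor. In the 250-base stretches of Fosb, Fosl2, Junb and Jund none of these letters were found. Among 32851 RefSeq promoter stretches of the same length TGACGT was present in 6.47%, TATAAA in 12.4%, TGACATCA in 2.93%, TGACTCA in 4.46%, TGACGTCA in 1.55%, the CArG box in 1.47% and the MEF2 site in 0.508%. A match describes letters and does not show binding, and sites more than 250 bases upstream of a start were not searched. The RefSeq start of Atf3 lies 34706 bases inside the longest gene model of GENCODE vM21, and that of Jund 1210 bases upstream of its GENCODE start, while those of Fos and Jun coincide in both annotations.

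Before the members, the labels and the sort were checked. Esr1 was at 7.53, 6.96 and 6.94 TPM in WT and at 2.92, 3.69 and 3.87 TPM in KO, each KO library below each WT library (adjusted p = 0.0925 by limma). Transcript values (TPM) are scaled for length and for library total, so levels of different genes can be compared, but they keep no depth, and how precise a single value is cannot be said. All 8 satellite cell markers were above 0 in every library, with Pax7, the defining transcription factor, between 17.9 and 32.8 TPM. All genes of the committed myogenic, fibro-adipogenic, endothelial, mural and erythroid lists were also above 0 in every library. In each library 15472 to 15856 of the 20663 listed genes with a RefSeq protein were above 0, so this alone does not mark satellite cells. Listed markers of other cells were at very different levels. The pan-leukocyte gene Ptprc was between 0.03 and 0.29 TPM and the fibro-adipogenic gene Pdgfra between 0.10 and 0.31 TPM, and the Schwann gene Gfra3 was listed at 0 in every library. Dcn and Col1a1, matrix genes of the fibro-adipogenic list, were at 7.32 to 13.4 TPM and 0.80 to 9.70 TPM, the myeloid gene Lyz2 reached 4.88 TPM and the smooth muscle actin gene Acta2 was at 10.7 to 19.4 TPM. The hemoglobin gene Hba-a1 ran from 6.31 to 168 TPM. Myod1, a transcription factor of activated and committed myogenic cells, was at 64.3 to 100.5 TPM. In bulk RNA fewer cells of a type and less RNA per cell cannot be told apart.

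AP-1 transcripts were abundant in every library. Together the 8 genes held between 0.188% and 0.263% of the TPM of all listed symbols. The listed symbols themselves summed to 29.5% to 33.4% of the total that TPM are scaled to. The 8 genes held between 0.586% and 0.779% of the TPM of all listed genes with a RefSeq protein. Fos ranked between 85 and 130 by TPM among the 20663 such genes, Fosb between 79 and 132, Jun between 101 and 148 and Junb between 127 and 166. Atf3 ranked between 149 and 223 and Fosl1, the gene of FRA1, between 167 and 211. So 6 of the 8 were among the 223 most abundant protein genes of every library. Jund and Fosl2, the gene of FRA2, were the least abundant members, with ranks between 292 and 462 and between 403 and 561. By the mean of the 6 libraries the order of the levels was Fosb at 145.5 ± 27.0 TPM (SD, n = 6), Fos at 137 ± 36.8, Jun at 119 ± 23.6, Junb at 94.5 ± 23.2, Atf3 at 73.4 ± 13.0, Fosl1 at 65.1 ± 11.6, Jund at 34.2 ± 5.67 and Fosl2 at 26.1 ± 3.82 TPM. Not every step of that order held library by library: Fosb lay above Fos in 4 of 6 libraries and Atf3 above Fosl1 in 4 of 6. Jun lay above Junb, Fosl1 above Jund, and Jund above Fosl2 in 6 of 6.

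Fos encodes the prototype Fos subunit, which pairs with Jun proteins and activates transcription; the gene lies on chromosome 12 at 85473890 to 85477273 (GRCm38, plus strand) and has 4 exons. It was at 102.0, 191 and 128 TPM in WT libraries 1, 2 and 3 and at 124, 174 and 105 TPM in KO libraries 1, 2 and 3. The groups overlapped, and the highest library was 1.87 times the lowest in WT and 1.65 times in KO. The WT mean was 140 ± 45.9 TPM and the KO mean 134 ± 35.5 (SD, n = 3 each). On the log2(TPM + 1) scale KO minus WT was -0.04 (SE 0.26, limma adjusted p = 0.953, by Benjamini-Hochberg over the whole table of tested genes). The 95% interval ran from -0.65 to 0.56, so these 6 libraries leave room for a ratio between 0.639 and 1.47.

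Fosb (chromosome 7, 19302696 to 19310051, minus strand) encodes the full-length FosB and, by splicing, a truncated form, which a value summed per gene does not resolve. Its WT libraries held 131, 157 and 149.5 TPM and its KO libraries 118, 192 and 125 TPM. WT was within a narrow range, while KO spanned it on both sides, with KO library 2 the highest and KO library 1 the lowest of all 6. The difference was -0.04 (SE 0.20, limma adjusted p = 0.948).

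Fosl1 encodes FRA1, a Fos-related subunit without the activation domain of Fos, usually induced later than Fos (chromosome 19, 5447547 to 5455946, plus strand). It was at 58.3, 67.3 and 49.8 TPM in WT and at 84.6, 67.6 and 63.0 TPM in KO. KO library 1 stood highest, and KO library 3 lay below WT library 2, so the groups overlapped. KO was at 123% of the WT mean, with a log2 difference of 0.29 (SE 0.17, 95% interval -0.10 to 0.68, limma adjusted p = 0.587). The exact two-sided permutation test gave p = 0.2 (n = 3 each). Without KO library 1 the difference was 0.17, and without WT library 3 it was 0.18. The 3′ end of Fosl1 overlaps Ccdc85b on the other strand, which was at 4.92 to 8.49 TPM, and no source used here says whether the libraries were stranded, so reads of the overlap cannot be assigned.

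Fosl2 encodes FRA2, likewise a weaker activator (chromosome 5, 32135801 to 32157842, plus strand). It was at 24.0, 30.6 and 24.1 TPM in WT and at 25.2, 30.9 and 21.7 TPM in KO, with overlapping groups and a difference of -0.02 (SE 0.17, limma adjusted p = 0.964). Library 2 of each group was again the highest, by a smaller ratio than in Fos.

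Jun is an intronless gene on chromosome 4 (95049034 to 95052222, minus strand) that encodes c-Jun, the subunit activated by JNK kinases. It was at 96.5, 149 and 110 TPM in WT and at 102, 149 and 109 TPM in KO. Both groups thus held 2 libraries between 96.5 and 110 TPM and 1 at 149 TPM. The log2 difference was 0.02 (SE 0.21, 95% interval -0.46 to 0.50, limma adjusted p = 0.972).

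Junb, the gene of a subunit that often restrains c-Jun, also has a single exon (chromosome 8, 84974484 to 84978718, minus strand). It was at 79.9, 132 and 70.1 TPM in WT and at 85.9, 113 and 86.5 TPM in KO. The spread was wider in WT, where the highest library was 1.88 times the lowest, than in KO, where it was 1.32 times. The difference was 0.06 (SE 0.24, limma adjusted p = 0.930). Junb overlaps the 3′ end of Prdx2 on the other strand, a gene at 6.22 to 9.74 TPM.

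Jund encodes the Jun subunit that many resting cells hold constitutively (chromosome 8, 70698949 to 70700616, plus strand). It was at 30.2, 40.9 and 34.3 TPM in WT and at 28.7, 41.2 and 29.6 TPM in KO. The groups overlapped, with a difference of -0.09 (SE 0.18, limma adjusted p = 0.863). The antisense genes Junos and Gm11175, annotated on the other strand of Jun and Jund, were not analysed here.

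Atf3, a stress-induced bZIP gene (chromosome 1, 191170296 to 191218039, minus strand), was the 1 member whose groups did not overlap. It was at 75.5, 95.7 and 75.7 TPM in WT and at 59.9, 72.6 and 61.2 TPM in KO. The lowest WT library was thus 75.5 TPM and the highest KO library 72.6 TPM. KO was at 78.4% of the WT mean (82.3 ± 11.6 against 64.5 ± 6.99 TPM, SD, n = 3 each), with a log2 difference of -0.34 (SE 0.16, 95% interval -0.70 to 0.01). It did not pass the threshold (limma adjusted p = 0.481, unadjusted p = 0.0578). By the exact permutation test (two-sided) p was 0.1, the smallest that 3 against 3 libraries allow. With each library divided by its median-of-ratios factor, Atf3 was at 83.5, 89.3 and 85.8 in WT and 60.4, 64.0 and 58.8 in KO, a difference of -0.49 with a limma adjusted p = 0.158.

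**Figure D1:**
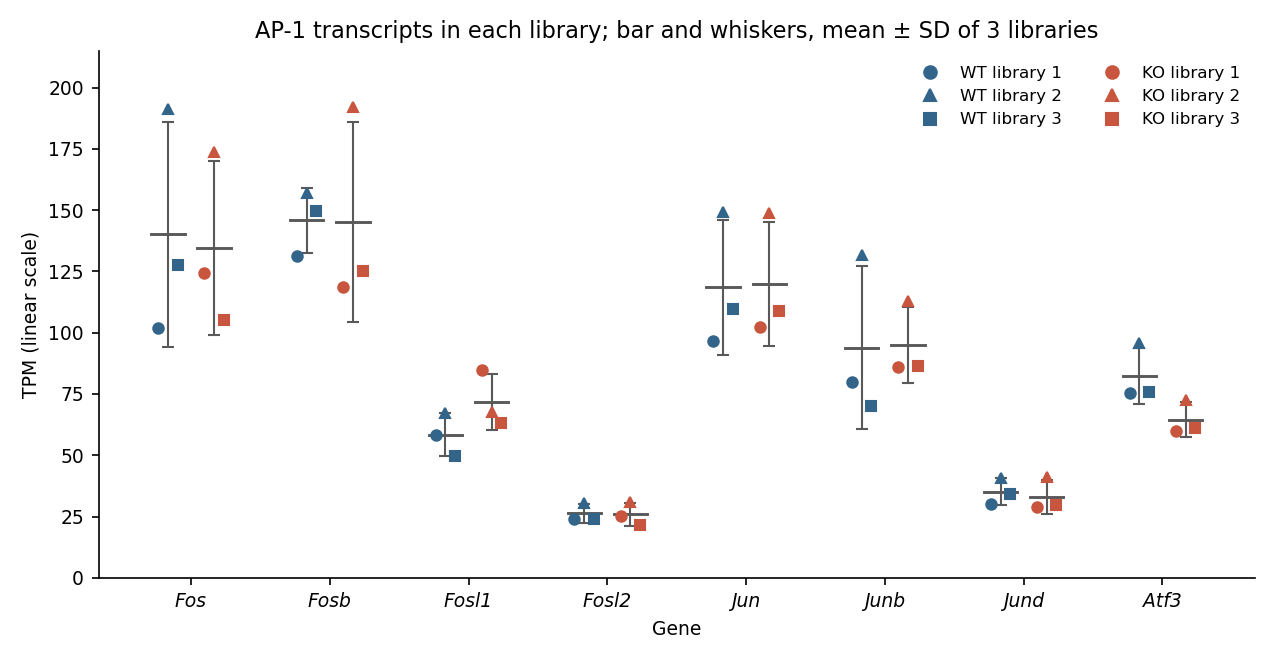
TPM of each AP-1 gene in the 3 WT (blue) and 3 KO (red) libraries on a linear scale; the bar and whiskers give the group mean ± SD. WT library 2 and KO library 2 (triangles) are the top points of most genes, and Atf3 alone has all KO points (59.9 to 72.6 TPM) under all WT points (75.5 to 95.7 TPM).

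Of the 8971 genes tested, which had reached 1 TPM in 3 or more libraries, 0.0557% passed an adjusted p of 0.05 in either direction by limma. All 8 AP-1 genes were tested and 0 were called, with 0 also at an unadjusted p under 0.05, against 7.89% of all genes tested that were higher and 2.66% that were lower at that p. The KO libraries lay wholly below the WT libraries in 1 member, Atf3, against 3.07% of all genes tested, and wholly above in 0 members, against 13.5% of all genes tested. By value 5 members were lower in KO and 3 higher, against 22.4% of all genes tested that were lower. The median difference of the members was -0.03. That median was 0.14 without WT library 2 and -0.20 without KO library 2, -0.18 with median-of-ratios factors and 0.06 after quantile normalization. In the main fit the median over all genes tested was 0.12, and 7 of the 8 members lay below it. That of all genes was 0.18 without WT library 2 and 0.080 without KO library 2. With median-of-ratios factors it was 0.0088. After quantile normalization it was -0.0014, and the members' median then lay above it. In 6 of the 8 the sign of the difference changed under at least 1 of the other settings or left-out libraries; Atf3 stayed lower and Fosl1 higher in all 16.

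**Figure D2:**
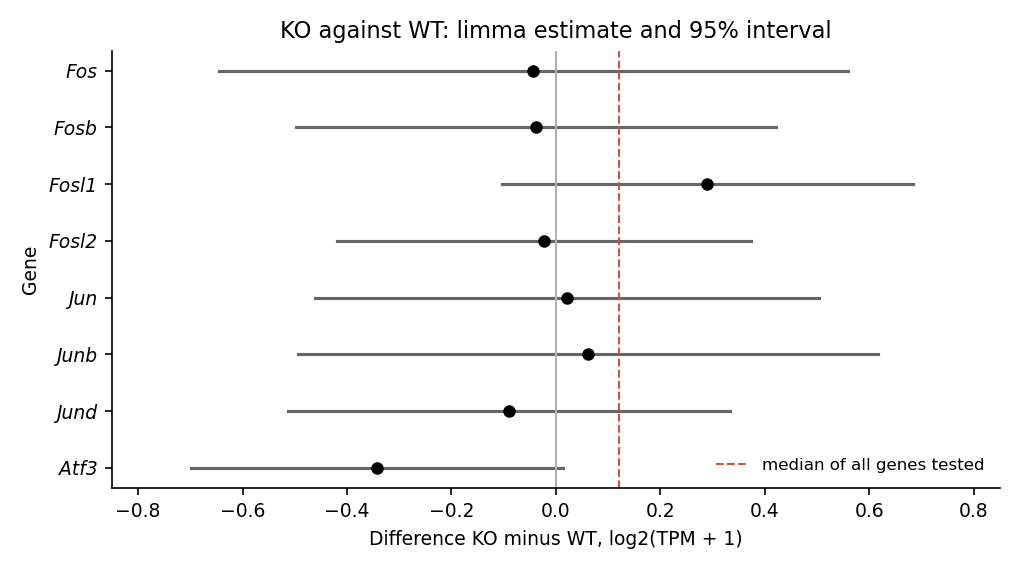
KO minus WT difference of each AP-1 gene on the log2(TPM + 1) scale, with the limma estimate (dot) and its 95% interval (line); the dashed line is the median of all genes tested, 0.12. All 8 intervals include 0, and Atf3 (-0.34) and Fosl1 (0.29) lie farthest from it on opposite sides.

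In 7 of the 8 AP-1 genes, all but Atf3, the ratio of the highest to the lowest library within each group was larger than the ratio between the group means. A range over 3 libraries tends to exceed a ratio of means when the group difference is small. The share of all genes tested for which this holds was not counted. WT library 2 was the highest WT library in 8 of 8 members and KO library 2 the highest KO library in 7 of 8, the exception being Fosl1. These 2 libraries were the top pair of all 6 for Fos, Fosb, Fosl2, Jun, Junb and Jund. How many of all genes tested were highest in the same libraries was not counted either. The lowest WT library was library 1 in 6 members and library 3 in 2. The median residual SD of the 8 genes was 0.27 on the log2 scale, against 0.18 over all genes tested and 0.22 over the 430 genes within the same range of mean TPM.

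Some other measures were also highest in library 2 of each group and others were not. The median-of-ratios factors of these 2 libraries were the highest of their groups, 1.07 for WT library 2 and 1.13 for KO library 2, so values of many genes were higher there. After division by these factors WT library 2 was highest of its group in 5 of 8 members and KO library 2 in 7 of 8, and the top pair of all 6 in 3 of 8 (Fos, Jun and Junb). Fos was then at 113, 178 and 145 in WT and at 126, 153 and 101.0 in KO. With libraries scaled instead by the TPM sum of genes with a RefSeq protein, the factors were 1.13 for WT library 2 and 1.02 for KO library 2. These 2 libraries were then the top pair in 5 of 8 members, and in 4 of 8 after quantile normalization. The satellite cell markers summed to 420 TPM in WT library 2 and 404 TPM in KO library 2, against 291 to 340 TPM in the other 4. The endothelial list (6 of 6 genes listed) summed to 5.65 to 9.43 TPM in WT and 5.04 to 15.7 TPM in KO, with the maximum of each group in library 2. The leukocyte list (6 of 6) summed to 2.53 to 8.71 TPM in WT, highest in library 2, and to 4.05 to 7.02 TPM in KO, highest in library 3, with Cd3e at 0 in KO libraries 1 and 3. The fibro-adipogenic list (6 of 6) was highest in WT library 3 and KO library 2, at 28.5 to 35.9 TPM and 28.8 to 39.9 TPM. The mural list (5 of 5) was lowest of WT in library 2, within a range of 36.2 to 37.2 TPM, and highest of KO there, within 37.0 to 56.3 TPM. The Schwann list (6 of 6) peaked in library 3 of both groups, at 6.77 TPM in WT and 19.1 TPM in KO. The committed myogenic list (5 of 5) was at 107.9 TPM in WT library 2, the highest of WT, and at 83.2 TPM in KO library 2, the lowest of KO. The erythroid list (5 of 5) summed to 214.7, 43.7 and 18.2 TPM in WT libraries 1, 2 and 3 and to 419, 437 and 38.4 TPM in KO libraries 1, 2 and 3. The part of these in the AP-1 levels was not tested.

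**Figure D3:**
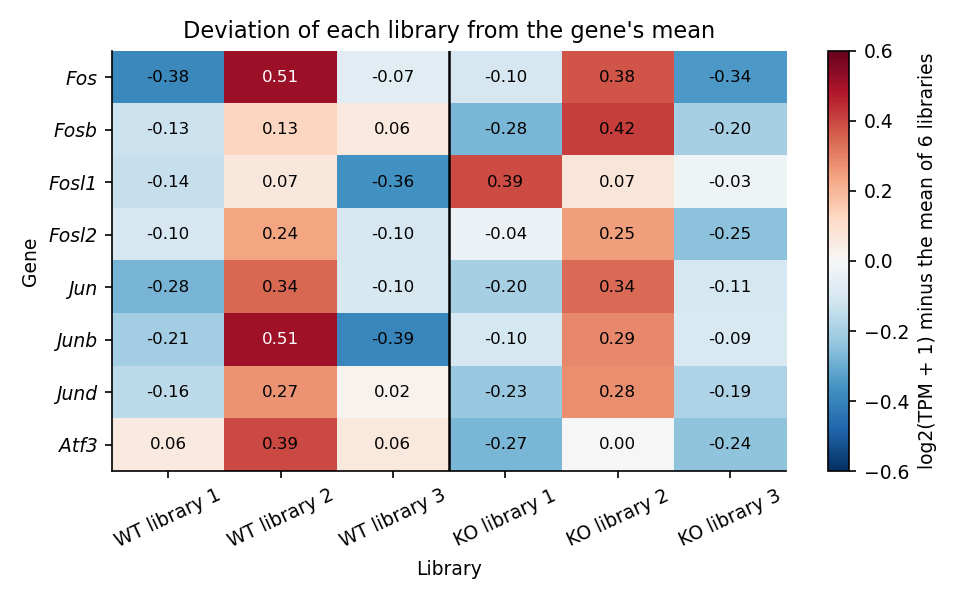
Deviation of each library from the gene's mean over the 6 libraries, in log2(TPM + 1), for the 8 AP-1 genes; red is above and blue below the mean, and the vertical line separates WT from KO. The columns of WT library 2 and KO library 2 hold the highest values in 6 rows, while Fosl1 peaks at 0.39 in KO library 1 and Atf3 is above its mean in all 3 WT libraries.

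Summed by family, Fos-type transcripts were more abundant than Jun-type transcripts in every library. The Fos family held 316, 446 and 351 TPM in WT and 353, 464 and 315 TPM in KO. The Jun family held 207, 322 and 214 TPM in WT and 217, 303 and 225 TPM in KO. The ratio of Fos to Jun family was 1.52 ± 0.127 in WT and 1.52 ± 0.115 in KO (SD, n = 3 each), and between 1.38 and 1.64 in single libraries. Both sums were highest in library 2 of each group.

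Within the families the shares of the members overlapped between the groups. Fosb and Fos were the main Fos-type transcripts, at 33.6% to 42.6% and 32.3% to 42.8% of the family, followed by Fosl1 at 14.2% to 24.0% and Fosl2 at 6.66% to 7.61%. Fosl1 held 15.9% ± 2.26 in WT and 19.5% ± 4.73 in KO, with its largest share, 24.0%, in KO library 1. Jun was 46.4% to 51.2% of its family, Junb 32.7% to 40.9% and Jund 12.7% to 16.0%.

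**Figure D4:**
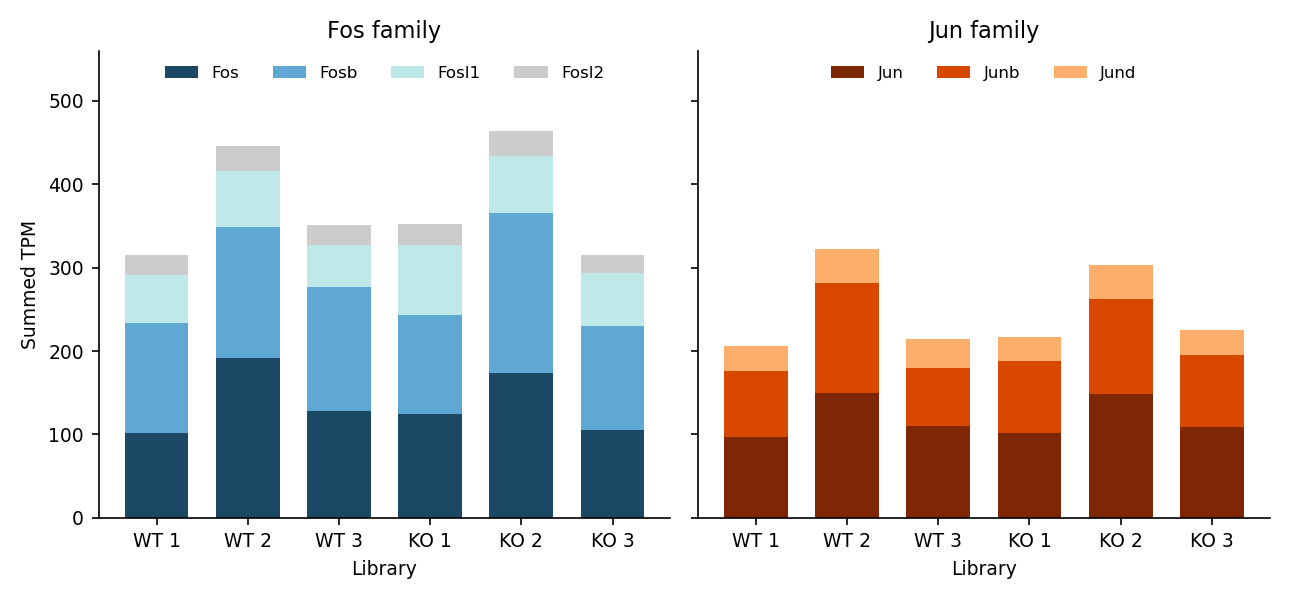
Summed TPM of the Fos family (left) and the Jun family (right) in each library, stacked by gene, on a linear axis from 0. The Fos family sum lies between 315 and 464 TPM and the Jun family sum between 207 and 322 TPM, with library 2 of each group the tallest bar.

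Genes whose 6 values followed a member most closely were sought by the root mean square (RMS) difference of log2(TPM + 1) after subtraction of each gene's mean, over 6 libraries and 8158 genes, leaving out the members, predicted genes (symbols of the Gm and Rik kind) and genes that RefSeq lists as miRNA, ribosomal RNA or another small RNA. For Fos the closest were Nabp1 (RMS 0.0644), Pnp (0.0858) and Mettl23 (0.0876), while the median gene lay at 0.324. Nabp1, which encodes a single-stranded DNA-binding protein, was at 5.84, 10.5 and 6.45 TPM in WT and 6.55, 10.2 and 5.61 TPM in KO. Of the AP-1 members Jun came closest to Fos (RMS 0.134) and would stand at rank 15 among all genes compared. For Jun the closest were Zfp951, Irf3 and Klf2 (RMS 0.0390, 0.0443 and 0.0534), which lay between 1.14 and 3.13 TPM. For Atf3 they were Larp6, Abhd14a and Lin7a (RMS 0.0391, 0.0545 and 0.0641), which lay between 0.85 and 4.27 TPM. At such low levels the 1 added to TPM compresses changes, so closeness on this scale is not closeness in fold change. Zfp951 ran from 1.14 to 2.49 TPM, while Jun ran from 96.5 to 149 TPM. With 6 libraries and 8158 genes compared, this closeness is a description and no p is given.

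The other genes of the AP-1 pathway were taken from 7 lists, and 0 of their tested members passed the threshold in either direction (limma, 0.0557% of all genes tested). At an unadjusted p under 0.05, which the lists are also counted by, 7.89% of all genes tested were higher in KO and 2.66% lower. By value, whatever the p, 22.4% of all genes tested were lower in KO. The KO libraries lay wholly above the WT libraries in 13.5% of all genes tested and wholly below in 3.07%. Genes named from the lists had the smallest p, which favours groups without overlap. Among bZIP partners and relatives, 24 of 27 were tested, with 21 higher and 3 lower in value and a median of 0.15; at an unadjusted p under 0.05 there was 1 of the 24 in each direction. Ddit3, whose product CHOP is induced by endoplasmic reticulum stress, was at 11.4, 12.4 and 9.63 TPM in WT and at 17.0, 15.8 and 14.5 TPM in KO (adjusted p = 0.270 by limma). Cebpb, a bZIP activator of acute phase and differentiation genes, was at 99.8, 116 and 95.7 TPM in WT and 81.5, 87.4 and 67.1 TPM in KO (adjusted p = 0.402 by limma). In both genes the groups did not overlap, in opposite directions. Nfe2l1, another bZIP activator, was at 7.02 ± 1.48 TPM in WT and 8.63 ± 0.319 TPM in KO (SD, n = 3 each).

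Among upstream kinases and serum response factors 19 of 26 listed genes were tested, with 15 higher and 4 lower in value and a median of 0.18. At an unadjusted p under 0.05 by limma 2 were higher. Map2k3, a kinase that activates p38, was at 11.1 ± 0.649 TPM in WT and 15.7 ± 1.60 in KO (SD, n = 3 each; limma adjusted p = 0.243). Mapk7, the gene of ERK5, was at 0.967 ± 0.107 and 1.49 ± 0.312 TPM, and Srf, which encodes serum response factor, at 4.13 ± 0.603 and 5.21 ± 0.0850 TPM. In these 3 genes, named for their small p, each KO library was above each WT library, as in 13.5% of all genes tested.

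Of the MAP kinase phosphatases, which switch the kinases off, 7 of 10 were tested, 5 higher and 2 lower in value, with a median of 0.13 and 0 at an unadjusted p under 0.05 by limma. Dusp16 was at 5.20 ± 0.810 TPM in WT and 6.60 ± 0.499 in KO, Dusp10 at 11.2 ± 2.25 and 14.5 ± 2.90 TPM, and Dusp6 at 3.44 ± 0.18 and 3.87 ± 0.30 TPM (SD, n = 3 each). Among genes for decay of AP-1 transcripts and turnover of their proteins 9 of 10 listed genes were tested, 8 higher and 1 lower in value. Their median was 0.15, with 0 at an unadjusted p under 0.05 by limma. Zfp36, whose product tristetraprolin binds AU-rich transcripts and is itself an early response gene, was at 82.0, 154 and 84.2 TPM in WT and at 161, 143 and 111 TPM in KO. Its WT pattern had library 2 on top, as in Fos, whereas in KO library 1 was the highest. Zfp36l2, of the same family, was at 30.4 ± 6.64 and 36.0 ± 2.70 TPM, and Cop1, a ubiquitin ligase acting on c-Jun, at 2.30 ± 0.205 and 2.66 ± 0.139 TPM.

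Genes reported elsewhere as AP-1 targets had 18 of 26 members tested, 14 higher and 4 lower in value, with a median of 0.27; 5 were higher and 1 lower at an unadjusted p under 0.05 by limma. Plaur, the urokinase receptor, was at 6.65, 9.14 and 6.40 TPM in WT and at 17.2, 12.3 and 11.5 TPM in KO (adjusted p = 0.193 by limma, and 0.0414, past the threshold, with genes of RefSeq proteins rescaled). Fn1, fibronectin, was at 2.78, 2.41 and 2.59 TPM in WT and at 3.60, 6.36 and 4.95 TPM in KO (adjusted p = 0.209 by limma). In both, likewise named for their small p, each KO library was above each WT library, as in 13.5% of all genes tested. Ccl2, a monocyte chemokine, was at 6.87, 12.2 and 5.44 TPM in WT and at 11.1, 29.2 and 13.8 TPM in KO, so that WT library 2 overlapped KO. The collagenase and stromelysin genes Mmp13 and Mmp3 reached at most 0.14 TPM in any library.

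Other early response factors had 22 of 23 listed genes tested, with 15 higher and 7 lower in value and a median of 0.08. At an unadjusted p under 0.05 by limma 1 was lower. Klf4, a zinc finger factor, was at 36.3 ± 6.58 TPM in WT and 25.7 ± 4.63 in KO, and Ier5 at 22.3 ± 6.60 and 32.1 ± 7.61 TPM. Egr2, another zinc finger factor, was at 12.4 ± 2.96 and 15.5 ± 1.64 TPM (SD, n = 3 each). The mean log2(TPM + 1) of this list was highest in library 2 of each group, 4.77 in WT and 4.83 in KO, against 4.30 to 4.45 in the other 4. Maff is in both this list and the bZIP list. The heat shock genes that muscle dissociation can induce had a median of -0.08 over 10 tested members, 3 higher and 7 lower in value and 0 at an unadjusted p under 0.05 by limma. Hspb1 was at 571 ± 51.2 TPM in WT and 465 ± 58.2 in KO, Hspa1a at 1592 ± 331 and 1374 ± 342 TPM, and Dnaja1 at 77.1 ± 15.5 and 86.6 ± 11.1 TPM (SD, n = 3 each).

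**Figure D5:**
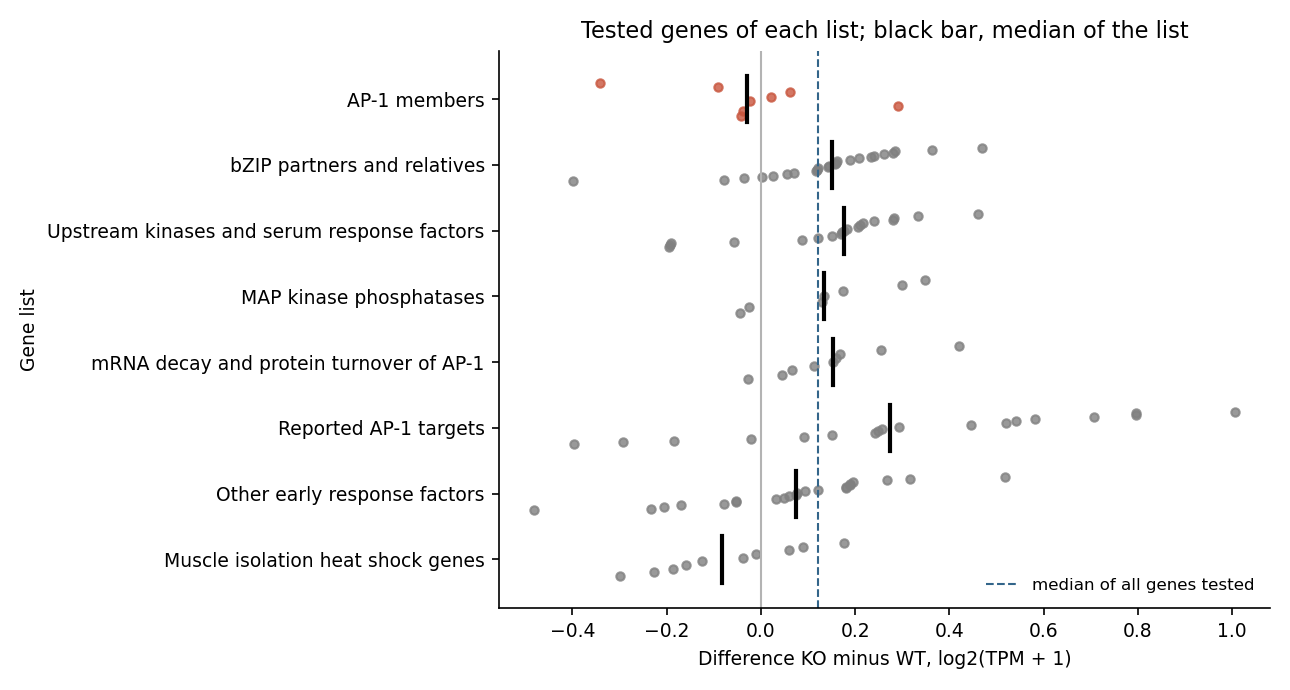
KO minus WT difference on the log2(TPM + 1) scale for the 8 AP-1 genes (red) and the tested genes of 7 related lists (grey), with the median of each as a black bar; vertical position within a row has no meaning, and the dashed line is the median of all genes tested, 0.12. The medians run from -0.08 for the heat shock genes and -0.03 for the AP-1 genes to 0.27 for the reported AP-1 targets.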

How the data were processed

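RNA-seq was done on total RNA extracted with a Qiagen RNeasy kit from sorted satellite cells, per the labels' protocols. Tools named without role or order are kallisto, CASAVA, FastQC and Trimmomatic 0.33, with mm10 and GRCm38 as builds, per the submitters' processing notes. The authors deposited TPM per gene symbol; no source used here says how transcripts were summed. Groups came from the sample titles. Genes that reached 1 TPM in 3 or more libraries were tested on log2(TPM + 1), which understates the change of genes with low values, with limma 3.58.1 in R 4.3.3 (lmFit, eBayes with a trend, two-sided, all 6 libraries, no covariate) and Benjamini-Hochberg adjustment over all 8971 genes tested, threshold 0.05. Exact permutation tests used scipy 1.17.1. The fit was tested on simulated data. Gene coordinates are those of GENCODE vM21 (GRCm38), and promoters and protein-coding status those of RefSeq on GRCm38.p6; 24869 of 24980 symbols matched RefSeq. The text names the 8 members, Esr1, from each pathway list at most 3 tested genes with the smallest p, and for Fos, Jun and Atf3 the 3 nearest genes. Cd44, Timp1, Ccdc85b, Prdx2, Mmp3, Mmp13, Maff and the markers named were chosen after their values were seen, and the promoters shown and the motifs searched after values and promoter sequences were seen. The members and lists were chosen with earlier results of these data known. Some genes of the lists are not reported here.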

Additional observations from a re-analysis of the deposited data

How the results depend on the processing

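The member differences, their median, the counts of calls, Esr1 and the pathway lists were recomputed under 10 other settings and with each library left out in turn (for Esr1 and the lists this was chosen after seeing the data), and 0 AP-1 genes were called under any of them (limma; the lowest adjusted p was 0.158, for Atf3 under median-of-ratios scaling, and over all its alternatives Atf3 ranged from 0.158 to 0.765). Of 128 member differences so obtained 106 kept their sign. The difference turned to 0.077 for Fos and 0.14 for Fosb under quantile normalization, to 0.021, 0.026 and 0.040 for Fos, Fosb and Fosl2 with genes of RefSeq proteins rescaled, and to -0.13 and -0.088 for Jun and Junb under median-of-ratios scaling; the cause was not tested. With 1 library left out the differences ranged from -0.25 to 0.20 for Fos, -0.26 to 0.090 for Fosb, -0.15 to 0.095 for Fosl2, -0.14 to 0.20 for Jun, -0.12 to 0.33 for Junb and -0.25 to 0.021 for Jund. The AP-1 median ranged from -0.20 without KO library 2 to 0.14 without WT library 2. Over all genes 3 were called higher and 2 lower. The counts were 0 higher with a pseudocount of 0.1, 0 lower with 5, and 0 in both directions with no filter or a mean TPM of 1 or more. They were 1 higher at TPM of 5 or more and under median of ratios, 1 higher and 0 lower under quantile normalization, 38 and 49 with RefSeq protein genes rescaled, and 17 and 16 with robust eBayes. With 1 library left out they ranged from 0 to 4 higher and from 0 to 2 lower, with 0 in both directions without KO library 3. Esr1 stayed lower, and passed the threshold with RefSeq protein genes rescaled (-0.81, adjusted p = 0.0387) and with robust eBayes (-0.86, adjusted p = 0.0240), within a range of 0.0240 to 0.319. Of the pathway lists 1 gene, Plaur, was called higher with RefSeq protein genes rescaled, and 0 under the others. The list medians stayed above 0 except those of other early response factors (-0.099 to 0.23) and heat shock genes (-0.23 to 0.079). Both of these changed sign. Division by the median-of-ratios factors lowered bZIP partners to 0.011, upstream kinases to 0.063, phosphatases to 0.015 and decay genes to 0.028. Reported AP-1 targets then stood at 0.17, and all genes tested at 0.0088 in place of 0.12. With RefSeq protein genes rescaled these lists rose instead, to 0.21, 0.23, 0.18, 0.20 and 0.33 in that order, and all genes to 0.17. The part of library scale in the list medians was not tested. The family sums were recomputed under the 3 scalings and, chosen after seeing the data, with each library left out: KO was at 90.0% to 113% of WT for Fos-type and 89.2% to 118% for Jun-type transcripts without 1 library. Ranks and nearest genes were not recomputed. No paired analysis was possible because the title numbers differ between all libraries. TPM keep no depth, so limits of detection are unknown.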

Other observations

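The level of Atf3 relative to the Jun-type transcripts it can pair with was examined after the values were seen, as a ratio that dividing a library by a single factor does not move. It was 0.365, 0.297 and 0.354 in WT libraries 1, 2 and 3 and 0.276, 0.240 and 0.272 in KO libraries 1, 2 and 3, a mean of 0.339 ± 0.0365 against 0.263 ± 0.0201 (SD, n = 3 each). The groups did not overlap, and WT library 2 lay nearest to KO. After quantile normalization, which is not such a factor, the WT libraries held ratios of 0.357, 0.329 and 0.362 and the KO libraries 0.277, 0.223 and 0.264, again without overlap. No test was made of this ratio.

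Cd44 and Timp1, both reported AP-1 targets, had an unadjusted p under 0.05 and were also picked after their values were seen; neither passed the adjusted threshold. Cd44, a hyaluronan receptor, was at 23.9, 23.9 and 18.5 TPM in WT and at 44.0, 29.6 and 26.0 TPM in KO (adjusted p = 0.403 by limma). Timp1, a metalloproteinase inhibitor, was at 1.07, 0.56 and 0.49 TPM in WT and at 1.79, 1.71 and 0.88 TPM in KO (adjusted p = 0.391 by limma). For Cd44 each KO library was above each WT library, as in 13.5% of all genes tested, and for Timp1 the groups overlapped.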
